A study of Homo sapiens with 24 samples.

Results

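The N211del line of DLD1 cells was compared after 3 h of dTAG13 and after 3 h of the vehicle DMSO, with 2 libraries for each treatment, 4 of the 24 libraries of the series. DLD1 is a human colorectal adenocarcinoma line. The 4 libraries were chosen by their titles and batch, not by any measured value. In all 4 of them the cells carried a degron tag, dTAG, knocked in at their own INTS8 gene and also expressed a second, ectopic form of INTS8 that the labels call N211del. dTAG13 is a small molecule that directs a dTAG-tagged protein to degradation. It was set against DMSO, so the dTAG13 and DMSO libraries differ in the fate of the tagged INTS8 but share the ectopic form. The same 3 h comparison was made in the same batch, batch 1, for the INTS8 line, which has the tagged INTS8 without the ectopic form, and for the INTS11 line, in which INTS11 carries the tag. A second batch held the N211del line again at 0, 1 and 3 h of dTAG13. No line with an ectopic unaltered INTS8 and no untagged line given dTAG13 is among the samples used here. Effects of dTAG13 itself therefore cannot be told apart from those of losing the tagged protein. The labels used here do not say whether a line is 1 clone or what drives the ectopic form. The series calls the pairs of libraries biological duplicates, and the p-values rest on the spread between these libraries alone.

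Integrator is a complex that binds RNA polymerase II shortly after it starts a gene. One part of it, with INTS11 as its catalytic subunit, cuts the nascent RNA, and another part holds the phosphatase PP2A, which removes phosphates that the kinase P-TEFb and other kinases place on the polymerase and its partners. INTS8 is a subunit that tethers PP2A to the rest of the complex. Both activities are known to end transcription early at many genes, and genes that respond fast to signals are among those most affected when Integrator is lost. TT-seq measures this at its source, because cells take up a uridine analogue for minutes and only the RNA made in that time is sequenced.

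Each deposited value of batch 1 could be written as a whole number of units divided by 1 length per gene. That length was found from the values and read as the gene's length, introns included. Values are given here in units per kb. Values of batch 2 were also multiplied by a factor for each library (0.565 to 0.753). The listed genes of the N211del line held 6179411 and 7019655 units in the dTAG13 libraries, against 5614822 and 5517104 in the DMSO libraries. The range over batch 1 was 5517104 to 8119831 units. The DMSO pair of the N211del line differed by less than sampling noise (chi-square per gene 0.878), as did 2 other pairs of batch 1, and its dTAG13 pair differed by more (1.71). The labels call them separate samples, so each pair was kept as 2 libraries, and counts with the agreeing pairs averaged are given beside the results they change. Of 14 colorectal epithelial markers 9 were listed, with summed values of 2279 and 2441 units per kb in dTAG13 libraries, against 2584 and 2566 in DMSO libraries. A sum weighs the most active markers most, and the markers did not fall together. On the log2 scale KRT8 and KRT18 changed by −0.17 and −0.22, but CDX2 and CDH17 by 0.24 each. CDH1, KRT19, EPCAM and ESRP1 changed by 0.10, 0.06, 0.01 and 0.01, and LGALS4 was not tested. None of 10 fibroblast, 10 haematopoietic or 6 endothelial markers was listed. The listed genes are only a part of all genes, so a marker that is not listed need not be silent. INTS8, INTS11 and PPP2CA, the PP2A catalytic gene, were not analysed here, and a tag that acts on protein leaves no trace in RNA by which the loss could be checked. In bulk libraries such as these, fewer cells of a kind and less RNA per cell cannot be told apart.

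On the deposited scale, values rose at far more genes than they fell at after dTAG13. Of 6579 genes tested with limma, 3658 (55.6%) differed at an adjusted p below 0.05, with 3191 higher (48.5%) and 467 lower (7.1%). The rises were also the larger changes. A change of at least 2-fold was reached by 571 called genes that rose and 26 that fell, of at least 4-fold by 78 and 1, and of at least 8-fold by 16 and 0. The single gene that fell by 4-fold or more was HOXB2. Both dTAG13 libraries lay above both DMSO libraries for 4029 genes (61.2%) and below both for 820 (12.5%). With the agreeing pairs of libraries averaged, 2365 genes were higher and 263 lower.

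The whole distribution was shifted upwards. The dTAG13 libraries also held more units in total, 6179411 and 7019655, against 5614822 and 5517104 in DMSO libraries. How far library depth sets the shift was not tested. The median gene changed by 0.21 on the log2 scale, with quartiles of 0.02 and 0.49, and the median listed value was 15.2 and 17.1 units per kb in dTAG13 libraries, against 13.3 and 13.3 in DMSO libraries. With each library centred on its own median, 1771 genes (26.9%) were higher and 2316 (35.2%) lower. Of the genes called on the deposited scale, 1770 of those that rose and all 467 of those that fell kept their call after centring, while 1415 of those that rose were no longer called and 6 were called lower. Changes called the same way on both scales are described below as called on both scales.

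The size of the change went with how active a gene was in DMSO. In the lowest of 4 equal bins by DMSO value the median log2 change was 0.50, and 1003 of 1645 genes rose. The next bins had medians of 0.27 and 0.18, and in the most active bin the median was 0.087, with 523 of 1645 genes higher and 141 lower. Across genes, Spearman's rho between DMSO value and log2 change was −0.36, and −0.35 between the 0 h value and the 3 h change in batch 2. These are descriptions over genes that share 4 libraries, and the DMSO value is also part of the change. Gene length went with the change far less, with rho at 0.08 in batch 1 and −0.02 in batch 2.

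**Figure D1:**
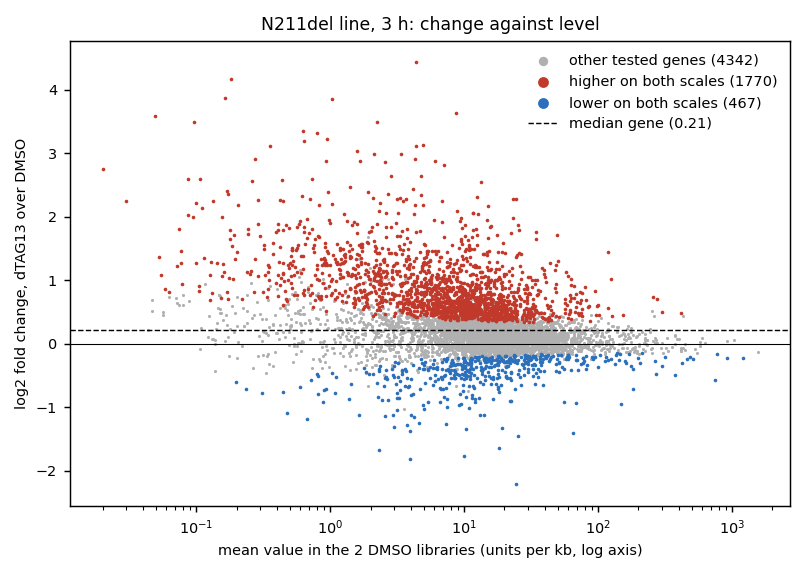
Each point is 1 of the 6579 tested genes of the N211del line in batch 1, with its mean value in the 2 DMSO libraries (units per kb, log axis) against its log2 change after 3 h of dTAG13, coloured by the call on both scales. Rises of 3 and more on the log2 scale lie at low and middle DMSO values, and the median of the lowest of 4 bins by DMSO value is 0.50, against 0.087 in the highest.

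The genes that rose most had low values in DMSO, below 10 units per kb. DIO3, which encodes the deiodinase that inactivates thyroid hormone, had 96.0 and 96.5 units per kb in dTAG13 libraries, against 4.09 and 4.60 in DMSO libraries, a log2 change of 4.44 ± 0.12 (limma adjusted p = 1.63e-13). CCDC80, a secreted matrix protein gene, had 4.92 and 4.92 against 0.158 and 0.203 (log2 change 4.17 ± 0.16, adjusted p = 2.12e-15). For both genes the replicates lay close together and the treatments were far apart. KCNG3, a modifier subunit of voltage-gated potassium channels, had 3.37 and 4.195 units per kb in dTAG13 libraries, against 0.173 and 0.154 in DMSO libraries (3.87 ± 0.18). SEMA3G, a secreted semaphorin that guides axons and endothelial cells, had 15.6 and 16.7 against 0.829 and 1.24 (3.86 ± 0.15). SOCS1, which blocks JAK kinases as feedback on cytokine signals, had 108 and 112 units per kb in dTAG13 libraries, against 8.15 and 9.32 in DMSO libraries (3.64 ± 0.15). SOCS1 was the most active of these 5 genes in both treatments.

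MDGA1, a cell-surface protein of neurons, had 2.04 and 2.19 units per kb in dTAG13 libraries, against 0.0746 and 0.119 in DMSO libraries (3.50 ± 0.20). FGF9, a growth factor ligand, had 7.45 and 6.79 against 0.808 and 0.449 (3.35 ± 0.25), and FOSB, a subunit of the AP-1 transcription factor, changed by 3.49 ± 0.13. Other genes past 8-fold were DLL4, KHDRBS3, MEX3B, BCL11B and CHRNA7. DLL4, a Notch ligand, had 41.3 and 46.2 units per kb in dTAG13 libraries, against 4.31 and 5.55 in DMSO libraries (3.13 ± 0.12). The RNA-binding protein genes KHDRBS3 and MEX3B changed by 3.32 ± 0.13 and 3.23 ± 0.41, BCL11B, a transcription factor of T cells and neurons, by 3.12 ± 0.16, and the nicotinic receptor subunit CHRNA7 by 3.58 ± 0.18. The 8 leading genes were chosen among those with a mean of at least 1 over the 4 libraries and no overlap of dTAG13 and DMSO libraries. They are therefore not the 8 largest rises of all tested genes. The others were picked as examples from their values.

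**Figure D2:**
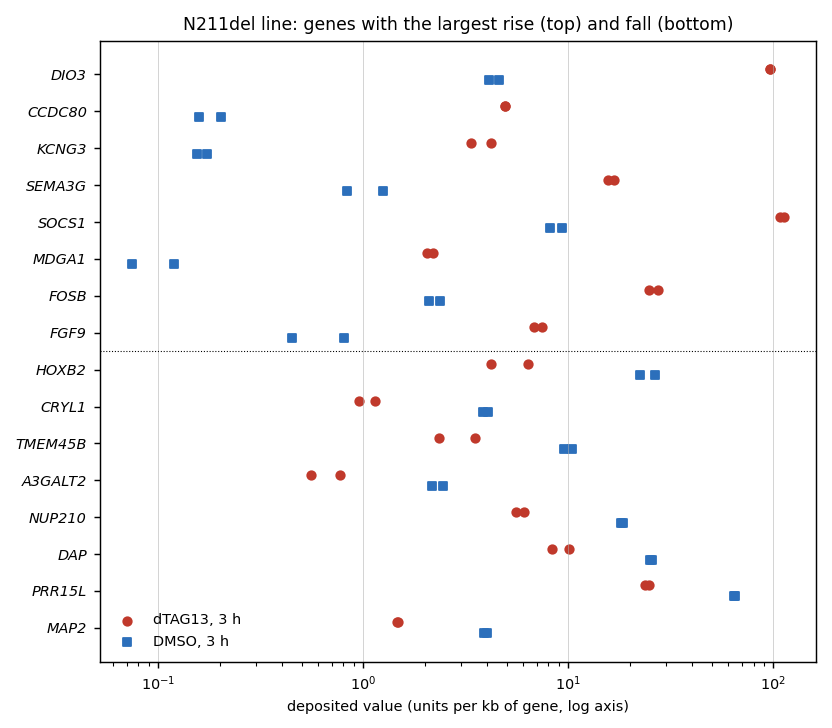
Value in each library (units per kb, log axis) of the 8 genes with the largest called rise and the 8 with the largest called fall in the N211del line of batch 1, dTAG13 and DMSO libraries side by side. The replicates of DIO3 lie close together, at 96.0 and 96.5 in dTAG13 libraries against 4.09 and 4.60 in DMSO libraries. Some pairs lie further apart, such as the DMSO libraries of FGF9 and the dTAG13 libraries of HOXB2. Genes were taken for the plot only with a mean of at least 1 over the 4 libraries and where the treatments do not overlap.

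The promoters of the 4 leading genes are printed to show how unlike in sequence the starts of genes with the largest rises were. They are the 300 bases around each gene's start in RefSeq on GRCh38.p14, read 5′ to 3′ on the gene's strand, and capitals mark matches, on either strand, to the TATA box as TATAAA, to the GC box as GGGCGG, to the CCAAT box by its own letters, to the core of hypoxia elements as ACGTG, to the AP-1 site as TGAGTCA, to the cyclic AMP element (CRE) as TGACGTCA or to a CArG box. DIO3 lies at chr14:101561245-101561544, plus strand, CCDC80 at chr3:112641094-112641393, minus strand, KCNG3 at chr2:42493933-42494232, minus strand and SEMA3G at chr3:52445054-52445353, minus strand. The DIO3 window holds a TATA box 32 bases before the start and has 73.0% G and C with 28 CpG dinucleotides. KCNG3 has 80.0% and 49 CpG, CCDC80 43.3% and 2, and SEMA3G 63.3% and 8.
DIO3: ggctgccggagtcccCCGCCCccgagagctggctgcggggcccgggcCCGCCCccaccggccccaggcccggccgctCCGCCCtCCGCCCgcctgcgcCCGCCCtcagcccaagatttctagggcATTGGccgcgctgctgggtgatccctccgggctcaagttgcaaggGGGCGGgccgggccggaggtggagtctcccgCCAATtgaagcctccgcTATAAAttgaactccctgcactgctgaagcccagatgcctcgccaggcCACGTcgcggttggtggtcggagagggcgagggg
CCDC80: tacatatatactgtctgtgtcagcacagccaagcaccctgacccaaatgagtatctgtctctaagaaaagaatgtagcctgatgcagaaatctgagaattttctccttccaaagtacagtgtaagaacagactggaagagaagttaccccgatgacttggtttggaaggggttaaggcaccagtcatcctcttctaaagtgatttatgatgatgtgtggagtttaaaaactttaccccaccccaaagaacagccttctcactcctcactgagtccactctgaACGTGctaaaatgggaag
KCNG3: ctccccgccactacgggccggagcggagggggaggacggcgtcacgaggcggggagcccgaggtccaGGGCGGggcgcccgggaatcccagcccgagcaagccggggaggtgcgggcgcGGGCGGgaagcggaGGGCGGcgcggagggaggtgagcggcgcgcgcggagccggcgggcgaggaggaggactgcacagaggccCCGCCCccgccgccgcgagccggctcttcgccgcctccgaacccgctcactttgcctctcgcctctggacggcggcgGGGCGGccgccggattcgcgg
SEMA3G: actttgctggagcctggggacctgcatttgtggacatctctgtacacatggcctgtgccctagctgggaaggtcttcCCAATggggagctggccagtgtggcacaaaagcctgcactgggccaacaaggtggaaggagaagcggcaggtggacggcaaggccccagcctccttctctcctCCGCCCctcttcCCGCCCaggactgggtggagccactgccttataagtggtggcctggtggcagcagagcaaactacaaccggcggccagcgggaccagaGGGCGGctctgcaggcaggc

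Falls were fewer and smaller. HOXB2, a homeobox transcription factor of the HOXB cluster, had 4.22 and 6.32 units per kb in dTAG13 libraries, against 26.6 and 22.3 in DMSO libraries, a log2 change of −2.22 ± 0.19 (limma adjusted p = 1.01e-05). CRYL1, which encodes a crystallin-related dehydrogenase of the glucuronate pathway, had 0.958 and 1.14 against 3.84 and 4.04 (−1.82 ± 0.14). TMEM45B, a membrane protein gene, had 2.33 and 3.51 against 10.4 and 9.51 (−1.76 ± 0.16). The dTAG13 libraries lay well below both DMSO libraries for each of the 3 genes, and replicate 1 was the lower of the dTAG13 pair. NUP210, a membrane nucleoporin, had 5.53 and 6.07 units per kb in dTAG13 libraries, against 18.1 and 18.5 in DMSO libraries (−1.64 ± 0.09). PRR15L had 23.7 and 24.9 against 65.0 and 64.1 (−1.41 ± 0.08), and MAP2, a microtubule-binding protein best known from neurons, 1.47 and 1.46 against 3.88 and 4.01 (−1.37 ± 0.12). A3GALT2 and DAP completed the 8 largest falls, at −1.67 ± 0.35 and −1.45 ± 0.09. LDAH, a lipid droplet hydrolase, and ATXN10 fell to a like degree, LDAH with 3.88 and 4.16 units per kb in dTAG13 libraries, against 10.5 and 10.1 in DMSO libraries, and ATXN10 with 7.06 and 8.06 against 19.7 and 18.6. The 8 largest falls were taken from genes with a mean of at least 1 over the 4 libraries, and their DMSO values ran from those of A3GALT2 (2.44 and 2.16) to those of PRR15L.

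The first 2 falling genes with a promoter entry are shown for contrast with the rising ones. CRYL1 lies at chr13:20525808-20526107, minus strand, with 75.3% G and C and 42 CpG, and A3GALT2 at chr1:33321049-33321348, minus strand, with 60% and 2 CpG. Like the rising set, the pair holds both a CpG-rich and a CpG-poor window.
CRYL1: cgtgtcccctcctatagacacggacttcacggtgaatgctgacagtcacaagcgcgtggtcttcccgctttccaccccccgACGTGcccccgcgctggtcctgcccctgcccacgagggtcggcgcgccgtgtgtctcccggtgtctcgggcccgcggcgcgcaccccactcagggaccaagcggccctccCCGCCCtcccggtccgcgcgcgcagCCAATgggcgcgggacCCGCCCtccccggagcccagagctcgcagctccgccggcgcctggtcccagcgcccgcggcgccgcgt
A3GALT2: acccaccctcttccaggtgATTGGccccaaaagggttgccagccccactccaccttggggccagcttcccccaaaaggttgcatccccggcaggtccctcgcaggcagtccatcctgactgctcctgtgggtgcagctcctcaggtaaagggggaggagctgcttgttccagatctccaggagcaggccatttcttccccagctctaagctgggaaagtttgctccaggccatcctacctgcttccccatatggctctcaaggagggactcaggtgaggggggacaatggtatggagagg

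Over whole groups of genes the same letter strings were counted, and a CArG box can itself contain the TATA box string or CCAAT, so the counts are not independent. The TATA box string was found in 10.9% of the 441 promoters of genes at least 2-fold higher on both scales, in 5.71% of the 70 promoters of genes at least 1.5-fold lower, and in 5.18% of the 5348 promoters of all tested genes. In all 27305 promoters of the table its share was 12%. The GC box was found in 74.8% of the higher, 64.3% of the lower and 71.9% of all tested genes (44.6% of the table). CCAAT was found in 36.7%, 22.9% and 36.8% (35.7% of the table) and ACGTG in 22.2%, 15.7% and 26.2% (21.6%). The AP-1 string was found in 4.76%, 5.71% and 3.23% (4.92%), the CRE in 2.72%, 1.43% and 3.22% (1.98%), and the CArG box in 1.36%, 1.43% and 1.18% (1.29%). These shares are descriptions of letters in a window, and no test was made on them.

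The immediate early genes, which serum and growth factors switch on within minutes, mostly rose. Of the 33 genes on the list 20 were tested, and 14 of these were higher and 2 lower, against 48.5% and 7.1% of all genes. After centring 11 were higher and 4 lower, against 26.9% and 35.2% of all genes. The median log2 change was 0.57 against 0.21 for all genes. The nuclear receptor NR4A3 had 32.6 and 34.0 units per kb in dTAG13 libraries, against 4.42 and 4.22 in DMSO libraries (2.92 ± 0.09). Its relative NR4A2 had 37.9 and 39.1 against 4.23 and 4.48 (3.11 ± 0.08). FOS, the AP-1 subunit, had 94.6 and 90.8 against 24.1 and 26.4 (1.87 ± 0.09). The zinc finger gene KLF4 rose more moderately, by 1.23, and ATF3, a stress-response factor, by 1.40. EGR1, by contrast, a zinc finger factor induced by the same signals, fell, with 74.0 and 77.4 units per kb in dTAG13 libraries, against 141 and 153 in DMSO libraries (−0.95 ± 0.13, adjusted p = 0.000213). KLF6 also fell (−0.35 ± 0.07), and JUN, the partner of FOS, had 157 and 163 against 144 and 133, which did not pass the test (adjusted p = 0.0795).

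Genes that MAP kinase signals induce, most of which damp these signals in turn, had no fall called on the deposited scale. Of 15 tested, 10 were higher and 0 lower, where 48.5% and 7.1% of all genes were, and 8 were higher and 4 lower after centring, where 26.9% and 35.2% of all genes were. The list's median was 0.46. DUSP1, a phosphatase that switches MAP kinases off, had 72.0 and 70.3 units per kb in dTAG13 libraries, against 25.2 and 28.4 in DMSO libraries (1.41 ± 0.10). DUSP4, DUSP10 and DUSP7, of the same family, rose by 1.38, 1.17 and 1.16.

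Hypoxia and glycolysis genes, many of them targets of HIF transcription factors, had the highest median of the 25 gene lists. Of 17 tested, 14 were higher and 0 lower (11 and 1 after centring), with a median of 0.76, where 48.5% of all genes were higher and 7.1% lower (26.9% and 35.2% after centring). ADM, which encodes the vessel-dilating peptide adrenomedullin, had 120.4 and 112 units per kb in dTAG13 libraries, against 40 and 29.2 in DMSO libraries (1.76 ± 0.13). The glycolytic regulator PFKFB3 had 37.4 and 39.4 against 8.57 and 9.20 (2.10 ± 0.08), and NDRG1 30.2 and 30.6 against 4.59 and 4.94 (2.65 ± 0.10). EGLN3, a prolyl hydroxylase that marks HIF for degradation, had 33.3 and 33.5 against 11.2 and 10.2 (1.63 ± 0.08). The collagen hydroxylase P4HA1 and the histone demethylase KDM3A rose by 0.94 and 0.92. VEGFA, the angiogenic ligand, rose by 0.38, a call that did not hold after centring.

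**Figure D3:**
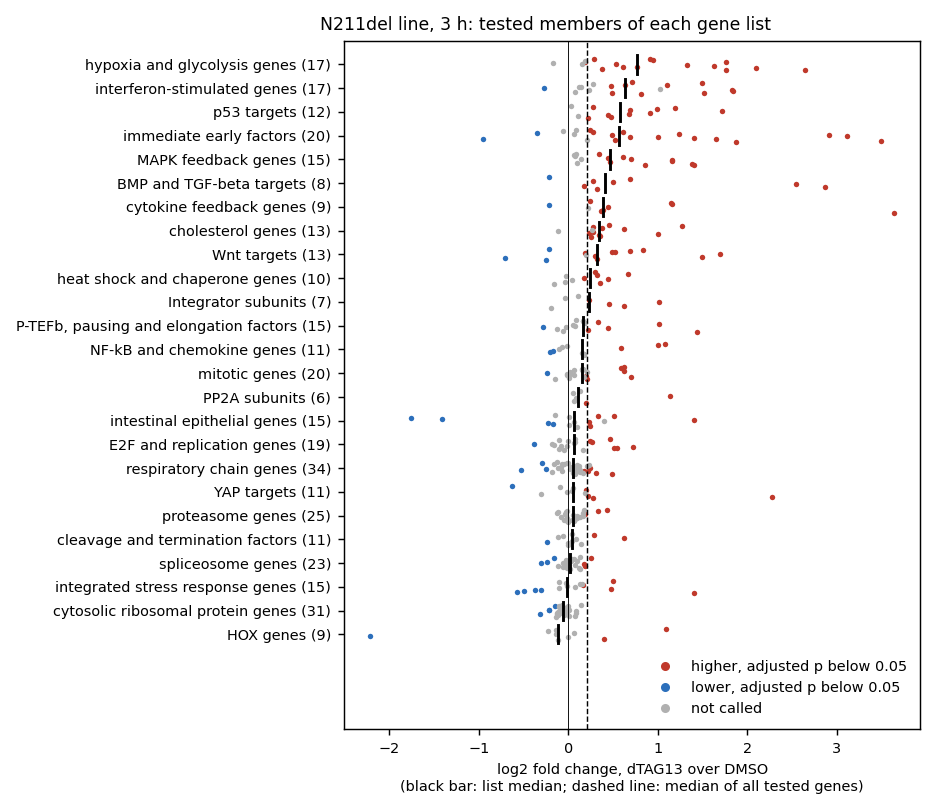
Log2 change after 3 h of dTAG13 (x axis) of every tested member of the 25 gene lists in the N211del line of batch 1, 1 row per list, with the list's median and the median of all tested genes (0.21) as lines. The hypoxia, interferon-stimulated and p53 lists lie mostly to the right of 0.21 (medians 0.76, 0.64 and 0.58), and the ribosomal protein list has a median of −0.06.

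Feedback and target genes of cytokines are read against the 48.5% of all genes that were higher and the 7.1% that were lower (26.9% and 35.2% after centring). Of 9 cytokine feedback genes 7 were higher and 1 lower (4 and 1 after centring, median 0.39), with the largest rise at SOCS1, and PIM2, a kinase gene that STAT factors induce, rose by 1.16 ± 0.13. Of 17 interferon-stimulated genes 10 were higher and 1 lower (8 and 2 after centring), with a median of 0.64, so the share called higher on the deposited scale was near that of all genes. IFI6 had 32.0 and 37.9 units per kb in dTAG13 libraries, against 9.63 and 9.79 in DMSO libraries (1.83 ± 0.10). OASL, an antiviral protein of the oligoadenylate synthetase family, had 1.77 and 2.89 against 0.642 and 0.482 (1.85 ± 0.25). MX2, an antiviral GTPase, rose by 1.51. The lower gene was IFIT5 (−0.28 ± 0.09), whose call was lost without dTAG13 replicate 2 or without DMSO replicate 1 and which changed by 0.27 in batch 2. NF-κB targets were mixed, with 3 higher and 2 lower of 11 (3 and 5 after centring). TRAF1 and IRF1 rose by 1.09 and 1.01. The chemokines CXCL5 and CXCL8 were lower (−0.20 and −0.17), calls that were lost without DMSO replicate 2 and, for CXCL8, also without DMSO replicate 1 or dTAG13 replicate 1.

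Targets of the BMP and TGF-β pathway were higher in 7 of 8 cases and lower in 1 (4 and 1 after centring), with a median of 0.41. Of all genes 48.5% were higher and 7.1% lower (26.9% and 35.2% after centring). SMAD6, an inhibitor in this pathway, had 7.17 and 7.60 units per kb in dTAG13 libraries, against 1.02 and 0.831 in DMSO libraries (2.88 ± 0.14). SNAI1, a repressor of epithelial genes, had 76.0 and 80.8 against 13.7 and 13.0 (2.54 ± 0.16). BAMBI, a decoy receptor, rose by 0.69. The ligand gene BMP4, among the most active genes listed, had 752 and 818 against 917 and 906 (−0.22 ± 0.06), a fall that was not called without dTAG13 replicate 1.

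Of 11 YAP targets 4 were higher and 1 lower (1 and 5 after centring), with a median of 0.06, where 48.5% of all genes were higher and 7.1% lower (26.9% and 35.2% after centring). CCN2, a secreted matricellular protein, was the extreme, at 108 and 115 units per kb in dTAG13 libraries, against 25.03 and 21.0 in DMSO libraries (2.28 ± 0.14). NT5E, the surface enzyme that makes adenosine, fell (−0.63). Of 13 Wnt targets, a pathway that is constitutively on in DLD1 cells because of truncated APC, 9 were higher and 3 lower (6 and 3 after centring). The receptor EPHB3 had 32.5 and 33.9 against 10.6 and 9.70 (1.70 ± 0.10), and NKD1, a pathway inhibitor, rose by 1.49. MYC rose to 406 and 436 in dTAG13 libraries, against 303 and 295 in DMSO libraries (0.49 ± 0.07). ASCL2, a factor of intestinal stem cells, fell to 105 and 117 in dTAG13 libraries, against 176 and 188 in DMSO libraries (−0.71 ± 0.09). AXIN2, a feedback inhibitor, was lower (−0.25 ± 0.07), a call lost without dTAG13 replicate 1.

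Counts differed between stress pathways, where 48.5% of all genes were higher and 7.1% lower (26.9% and 35.2% after centring). Of 12 p53 targets 10 were higher and 0 lower (6 and 2 after centring), with a median of 0.58, and the kinase gene PLK2 had 163 and 162 units per kb in dTAG13 libraries, against 51.0 and 48.0 in DMSO libraries (1.71 ± 0.07). FDXR, a mitochondrial reductase, rose by 1.196. DLD1 cells are known to carry mutant p53. The integrated stress response, in which ATF4 switches on amino acid and redox genes, had 4 higher and 4 lower of 15 (3 and 8 after centring) and a median of −0.02. ATF4 itself fell, with 489 and 506 against 752 and 726 (−0.57 ± 0.06, adjusted p = 2.34e-08). DDIT4, an inhibitor of mTORC1, had 260.3 and 275 units per kb in dTAG13 libraries, against 397 and 358 in DMSO libraries (−0.49 ± 0.08), and CHAC1, which degrades glutathione, had 77.9 and 77.3 against 104 and 97.3 (−0.37 ± 0.08). Cholesterol genes, the targets of SREBP2, were higher in 11 of 13 and lower in 0, but in 4 and 1 after centring. The isoprenoid enzyme IDI1 had 68.0 and 73.0 units per kb in dTAG13 libraries, against 35.5 and 34.7 in DMSO libraries (1.00 ± 0.07), and INSIG1, which holds SREBP in the membrane, rose by 0.45. Of 10 heat shock genes 6 were higher and 0 lower (2 and 3 after centring), shares near those of all genes, with the chaperones HSPA4L and DNAJA1 higher by 0.67 and 0.45.

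Among the genes of the machinery around Integrator, those of P-TEFb, PP2A and termination were called higher in a smaller share than the 48.5% of all genes (26.9% higher and 35.2% lower after centring). HEXIM1, the inhibitor that holds P-TEFb inactive in the 7SK particle, had 318 and 326 units per kb in dTAG13 libraries, against 111 and 126 in DMSO libraries (1.44 ± 0.07, adjusted p = 3.6e-14). Among 15 genes of P-TEFb and elongation factors 5 were higher and 1 lower, but 3 and 8 after centring. CTR9, of the PAF complex, rose by 1.01. The lower one was NELFB, of the pausing factor NELF (−0.28), whose call was lost without dTAG13 replicate 1 or without DMSO replicate 1. Of 7 Integrator genes with values 4 were higher and 0 lower (3 and 3 after centring). NABP1, a single-strand binding protein that joins the complex, had 129 and 124 against 63.8 and 61.8 (1.01 ± 0.06), and INTS2 and INTS10 rose by 0.62 and 0.46. Of 6 PP2A genes 2 were higher and 0 lower (1 and 3 after centring). PPP2R3A, a regulatory subunit, had 2.75 and 3.34 units per kb in dTAG13 libraries, against 1.29 and 1.36 in DMSO libraries (1.14 ± 0.14). PPP2CB, a further catalytic gene, was higher by 0.20, a call lost when either DMSO library was left out and turned to −0.062 by centring. Of 11 termination factors 2 were higher and 1 lower (1 and 6 after centring). ZC3H4, which restricts short non-coding transcription, rose by 0.63 ± 0.07. SYMPK, a scaffold of 3′ end cleavage, was lower (−0.24), a call lost without dTAG13 replicate 1 or when either DMSO library was left out.

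Lists of housekeeping, cell cycle, epithelial and HOX genes had medians below the 0.21 of all genes on the deposited scale. They ran from −0.11 for HOX genes to 0.15 for mitotic genes. The most active of the 4 bins by DMSO value also had a median below 0.21, at 0.087, and the lists were not matched for DMSO value. Of all genes 48.5% were higher and 7.1% lower (26.9% and 35.2% after centring). Of 31 ribosomal protein genes 0 were higher and 4 lower (0 and 30 after centring), with a median of −0.06. RPL22L1 had 100.4 and 116 units per kb in dTAG13 libraries, against 136 and 133 in DMSO libraries (−0.32 ± 0.07). Of 23 spliceosome genes 3 were higher and 3 lower (0 and 17 after centring), with a median of 0.02. Of 25 proteasome genes 3 were higher and 0 lower (1 and 17 after centring), and of 34 respiratory chain genes 5 were higher and 3 lower (1 and 23 after centring), each with a median of 0.06. Examples were the splicing factor SRSF3 at −0.30, the proteasome activator PSME4 at 0.43 and the complex I subunits NDUFV3 at −0.53 and NDUFA4 at 0.49. Of 19 E2F targets 6 were higher and 1 lower (4 and 11 after centring), with CCNE1, cyclin E1, at 0.72 and the replicative helicase subunit MCM5 at −0.39. Of 20 mitotic genes 6 were higher and 1 lower (4 and 10 after centring), with the phosphatase gene CDC25B at 0.70. The lower mitotic gene was BIRC5, survivin (−0.24), whose call was lost without dTAG13 replicate 1 or without DMSO replicate 2. Of 15 intestinal epithelial genes 5 were higher and 4 lower (2 and 9 after centring), TMEM45B and PRR15L among the lower. MUC13, a membrane mucin, rose by 1.41, and the keratin KRT18 had 999 and 1062 against 1209 and 1198 (−0.22 ± 0.06). Of 9 HOX genes 2 were higher and 1, HOXB2, lower (1 and 7 after centring), with HOXD9 higher by 1.10 ± 0.26.

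Set against the INTS8 line, in which no ectopic INTS8 was present, the responses were alike in which genes rose and differed in size at a smaller number of genes. In the INTS8 line 34.6% of genes rose and 21% fell. Of the 1292 genes called higher by at least 1.5-fold in the N211del line, 944 (73.1%) were also so in the INTS8 line, which is 83.7% of that line's 1128. Of the 102 lower by at least 1.5-fold, 80 (78.4%) were shared, but these were 32.1% of the 249 in the INTS8 line. Of all 6579 genes, 1128 were higher and 249 lower by that much in the INTS8 line. These overlaps are on the deposited scale, where the median gene changed by 0.21 in the N211del line and 0.065 in the INTS8 line. They were not counted after centring, and how far the differing medians set them was not tested. The test of the difference, on 8 libraries that the lines do not share, called 727 genes (11.1%). The N211del response was higher at 595 (9.04%) and lower at 132 (2.01%), and after centring at 287 (4.36%) and 469 (7.13%). The count rested heavily on single libraries. It was 2522 without dTAG13 replicate 1 of the N211del line and 268 without replicate 2, 289 and 229 without its DMSO replicates 1 and 2, 181 without dTAG13 replicate 2 of the INTS8 line and 307 and 224 without its DMSO replicates 1 and 2. With agreeing pairs averaged it was 72.

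Several of the strongly responding genes rose less in the N211del line. FOSB had 27.4 and 24.8 units per kb in dTAG13 libraries, against 2.37 and 2.09 in DMSO libraries of the N211del line, and 41.1 and 36.1 against 1.253 and 0.974 in the INTS8 line. The difference of the log2 changes was −1.51 ± 0.18 (limma adjusted p = 0.000114). FOS showed the same pattern, with 1.87 in the N211del line and 2.96 in the INTS8 line (difference −1.09 ± 0.13), as did NR4A2 with 3.11 and 3.98 and ATF3 with 1.40 and 2.27. For FOS the DMSO level differed too, at 24.1 and 26.4 in the N211del line and 9.70 and 11.2 in the INTS8 line, while the dTAG13 levels were 94.6 and 90.8 in the N211del line and 79.0 and 84.9 in the INTS8 line. Of 20 immediate early genes 5 responded less in the N211del line and 0 more (7 and 0 after centring). Among all genes 2.01% responded less and 9.04% more (7.13% and 4.36% after centring). The muscle enolase ENO3 rose by 1.77 and 3.12 (difference −1.35 ± 0.19) and NDRG1 by 2.65 and 3.52. PRDM7, a histone methyltransferase gene close to PRDM9, had 1.35 and 1.30 against 0.193 and 0.145 in the N211del line and 3.999 and 3.71 against 0.0964 and 0.145 in the INTS8 line (difference −1.76 ± 0.25). NNMT, a methyltransferase of nicotinamide, rose by 1.24 and 2.85. PRDM7 has a near-identical relative, so its reads are uncertain.

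Other genes fell less in the N211del line, or were called lower in the INTS8 line and not in the N211del line. TMEM45B changed by −1.76 in the N211del line and by −2.77 in the INTS8 line, a difference of 1.01 ± 0.22 that was not called without dTAG13 replicate 2 of the INTS8 line or DMSO replicate 2 of the N211del line. CYFIP2, which links the actin regulator WAVE to Rac, changed by −0.99 and −1.97 (difference 0.98 ± 0.14), and PRR15L by −1.41 and −2.20. SOX7, an endothelial and stem cell factor, had 2.15 and 3.69 units per kb in dTAG13 libraries, against 2.15 and 2.77 in DMSO libraries of the N211del line, and 1.69 and 1.85 against 4.001 and 4.46 in the INTS8 line (difference 1.41 ± 0.28). Its N211del libraries overlap, and those of the INTS8 line do not. A few genes changed in opposite directions. DDIT4 and CHAC1 fell in the N211del line and rose in the INTS8 line, where DDIT4 had 152 and 171 against 125 and 141 and CHAC1 52.9 and 52.9 against 42.1 and 37.5, with differences of −0.77 ± 0.12 and −0.78 ± 0.12. Their DMSO levels differed too, and were higher in the N211del line, at 397 and 358 for DDIT4 and 104 and 97.3 for CHAC1. In batch 2 both genes rose in the N211del line as well, at 1.63 and 0.62 after 3 h. INSIG1 rose in the N211del line of batch 1 and fell in the INTS8 line, with 73.7 and 76.0 against 85.0 and 86.7 in the INTS8 line (difference 0.65 ± 0.09).

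**Figure D4:**
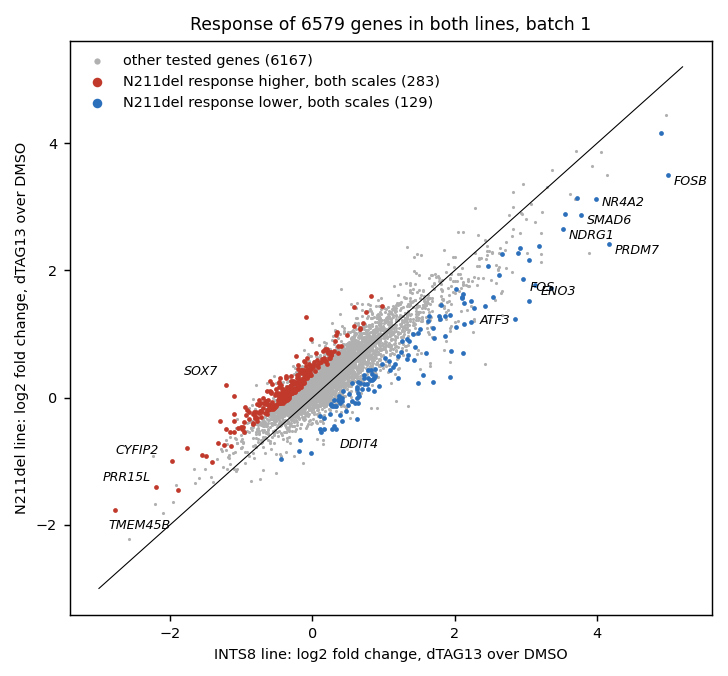
Log2 change after 3 h of dTAG13 in the N211del line (y axis) against that in the INTS8 line (x axis) for the 6579 tested genes of batch 1, coloured by the call of the difference on both scales. FOSB (3.49 and 5.00) and PRDM7 (2.41 and 4.17) lie below the diagonal, and SOX7 (0.20 and −1.21) and CYFIP2 (−0.99 and −1.97) above it.

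The distance to the INTS11 line was larger, where 19.4% of genes rose and 19.8% fell after dTAG13. The test of the difference called 3190 genes (48.5%), with the N211del response higher at 2874 (43.7%) and lower at 316 (4.8%), and higher at 992 (15.1%) and lower at 1237 (18.8%) after centring. Of the 1292 genes higher by at least 1.5-fold in the N211del line 370 (28.6%) were so in the INTS11 line, 67.3% of its 550. Of the 102 lower ones 16 (15.7%) were, 20.3% of 79. Of all 6579 genes, 550 were higher and 79 lower by that much in the INTS11 line, where the median gene changed by −0.033. These overlaps too were counted on the deposited scale only. RGS2, a brake on G protein signals, had 45.4 and 54.4 units per kb in dTAG13 libraries, against 8.35 and 5.87 in DMSO libraries of the N211del line, a log2 change of 2.81, and of 0.25 in the INTS11 line (difference 2.56 ± 0.31). The log2 changes of KHDRBS3 were 3.32 in N211del cells and 0.72 in INTS11-tagged cells, those of MEX3B 3.23 and 0.71, and those of SEMA3G 3.86 and 1.40. In the other direction, SULT1C3, a sulfotransferase, had 1.30 and 1.69 against 3.62 and 3.86 in the N211del line (−1.28), and its log2 change in the INTS11 line was 0.63. The log2 changes of HOXB2 were −2.22 and −0.55 (difference −1.67 ± 0.26), and those of RFESD −0.063 and 1.88. Of the 20 immediate early genes 11 responded more in the N211del line than in the INTS11 line, 7 of them after centring. Among all genes 43.7% did, and 15.1% after centring.

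The second batch measured the N211del line again, against 0 h of dTAG13 in place of DMSO. Of the 3188 genes called higher in batch 1 that were tested there, 2757 (86.5%) were higher at 3 h, where 49.7% of all 6950 tested genes were. Of 466 called lower, 371 (79.6%) were lower, where 13.8% of all were. The leading genes had changed within 1 h. DIO3 had 1.80 and 6.10 units per kb at 0 h, 35.4 and 31.1 at 1 h and 52.7 and 59.0 at 3 h, log2 changes of 3.28 and 4.03 from 0 h. SOCS1 changed by 3.12 at 1 h and 3.39 at 3 h, SEMA3G by 3.56 and 3.47, and KCNG3 by 3.33 and 3.28. On the log2 scale most of the change at 3 h was thus present at 1 h in these 4 genes. Among the falling genes, HOXB2 was at −0.80 after 1 h and −1.16 after 3 h, CRYL1 at −1.06 and −1.37 and NUP210 at −0.83 and −1.25, while A3GALT2 and DAP were at −1.58 and −1.45 after 1 h and −1.63 and −1.58 after 3 h. The step between 1 h and 3 h was not tested. Of the gene lists, hypoxia genes were higher in 15 of 17 at 3 h and lower in 0 (13 and 2 after centring). Interferon-stimulated genes were so in 14 and 0 of 17 (12 and 1), and MAP kinase feedback genes in 13 and 0 of 15 (10 and 2). Immediate early genes were mixed, with 12 higher and 5 lower of 20 (12 and 8 after centring). After centring, 2057 of 6569 genes were higher and 2425 lower.

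**Figure D5:**
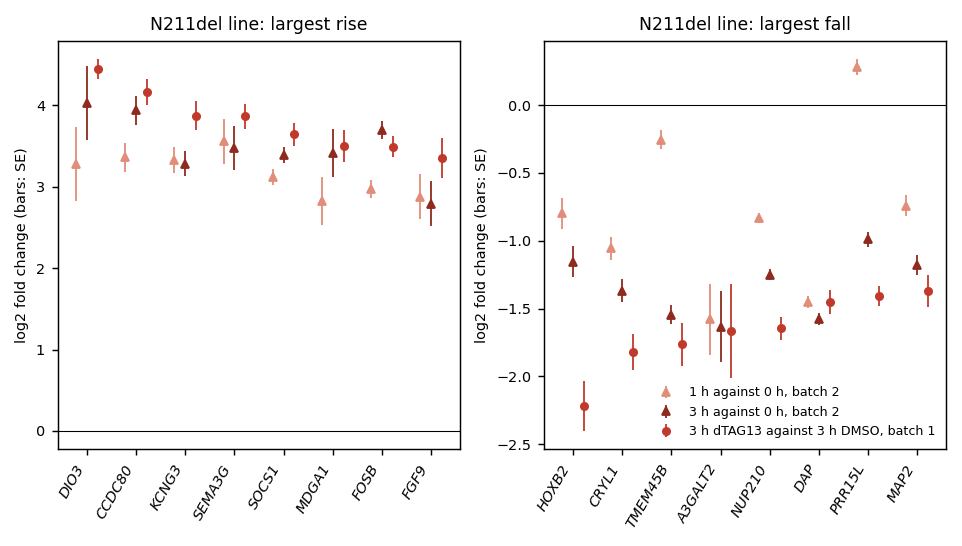
Log2 change (y axis, bars show the SE) in the N211del line at 1 h and 3 h against 0 h in batch 2 and at 3 h of dTAG13 against 3 h of DMSO in batch 1, for the 8 genes with the largest rise (left) and the 8 with the largest fall (right). DIO3 is at 3.28, 4.03 and 4.44, and PRR15L lies above 0 at 1 h (0.28) and below it at 3 h in batch 2 (−0.99) and in batch 1 (−1.41).

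The batches disagreed at 20 called genes. TXNIP, FANCF, KLRC2, DDIT4, AMACR, CHAC1, KRCC1, IFIT5, ABHD4 and HSPA13 were lower in batch 1 and higher in batch 2, and GRHPR, P2RX4, PLIN3, CMTM8, VPS18, LANCL2, CTPS1, CSRNP1, STAT3 and CCN1 were the reverse. After centring none of the second set was called in batch 1, and of the first set TXNIP, KLRC2, DDIT4 and CHAC1 kept both calls while the other 6 were not called in batch 2. DDIT4 had 37.0 and 36.1 units per kb at 0 h, 99.0 and 83.2 at 1 h and 107 and 121 at 3 h in batch 2, against DMSO values of 397 and 358 in batch 1. CHAC1 had 17.1 and 18.8 at 0 h, 28.2 and 28.1 at 1 h and 31.6 and 24.0 at 3 h. Only batch 2 values carried a factor for each library, so levels set across the batches are not on 1 scale. Each direction was taken within a batch. The integrated stress response list had 9 called rises and 2 called falls among its 15 genes in the second batch (7 and 4 after centring). Among all genes tested there, 49.7% rose and 13.8% fell (2057 and 2425 of 6569 after centring). The first batch gave this list 4 called rises and 4 called falls (3 and 8 after centring). Its shares over all genes were 48.5% and 7.1% (26.9% and 35.2% after centring). The 0 h cells of batch 2 had no vehicle, so vehicle, handling and time in culture cannot be told apart from dTAG13 there.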

How the data were processed

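TT-seq libraries were taken as deposited, grouped by the treatment, line, time and batch in their titles; the treatment protocol gives 3 h for all, and the titles were followed. Per the file headers the values are FPKM, but the deposited values behave as a signal. In batch 1 each could be written as a whole number divided by 1 length per gene in kb. That length was found from the batch 1 values as the shortest that makes them whole. The 100% of values within 0.02 of a whole number was therefore fixed in advance. With the same lengths, batch 2 values are also multiplied by 1 factor per library (0.565 to 0.753), with 89.6 to 93.3% within 0.05. The sources used here do not say how the authors set these factors. Tools named, without roles, in the submitters' processing notes were STAR 2.7.5c, Trim Galore 0.6.6, DESeq2 1.26.0, SAMtools 1.9 and Picard 2.23.3, and the builds were hg19 and mm10. Per the labels' protocols the kit was stranded; the sources used here do not say if strand was used in counting, and overlapping genes and ribosomal protein genes with pseudogenes are uncertain. Of 7223 symbols 7169 matched the symbol table, and lengths were found for 6832 genes (median 33609.5 bp).

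Log2(value + 0.1) of the 6579 genes listed in all 12 batch 1 libraries with a mean of at least 0.1 was modelled by limma 3.58.1 (R 4.3.3), each group having its own mean and all sharing a trended, robust empirical Bayes spread. P-values were two-sided and adjusted by Benjamini-Hochberg over all genes tested, with calls at 0.05. Batch 2 was fitted apart. Fold changes on this scale understate changes of low genes, and ± is the standard error of the log2 change with n = 2 libraries per group (median SE 0.09). Gene lists are counted over their tested members, and some members are not reported here by name. Named genes were the 8 largest called rises and falls with a mean of at least 1 and libraries of the treatments apart, leaving out non-coding and uncharacterised names, the 2 largest called members of each list, and the 5 highest and 5 lowest called differences to each other line. Other list members, and genes past 8-fold outside the first 8, were chosen as examples after their values were seen. The lists and the rule were chosen with earlier results of these data known. Alternatives were other pseudocounts (0.01 and 1) and filters, centring, a length correction, a replicate block, voom on the whole numbers, averaging of agreeing pairs, fits with the libraries of 1 contrast, and each library left out in turn, with a lone library taken to vary as the other groups do. The procedure was tested on simulated data. Python 3.11.15 was used, with matplotlib 3.10.9, scipy 1.17.1, pandas 2.3.3 and numpy 2.4.6.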

Additional observations from a re-analysis of the deposited data

Results flagged for a closer look

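The genes below had a response to dTAG13 in the N211del line that differed by limma's test from the response in another line of batch 1. Each value is the log2 change in the N211del line minus that in the other line. The 2 changes of a pair share no library.

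Against the INTS8 line, the response was higher in the N211del line for SOX7 by 1.41, for RAB9B by 1.36, for VSTM5 by 1.12, for TMEM45B by 1.01 and for CYFIP2 by 0.98. RAB9B, a small GTPase, had log2 changes of 1.27 in the N211del line and −0.096 in the INTS8 line, and the difference was not called without dTAG13 replicate 2 of either line. VSTM5 had 0.023 and −1.10. PRR15L (0.80), INSIG1 (0.65), ASCL2 (0.61) and the tissue factor gene F3 (0.54) had smaller differences in the same direction, and that of ASCL2 was not called without dTAG13 replicate 2 of the N211del line.

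The response was lower in the N211del line than in the INTS8 line for PRDM7 (−1.76), MASP2 (−1.62), NNMT (−1.61), SLC22A11 (−1.53), FOSB (−1.51), ENO3 (−1.35) and FOS (−1.09). SLC22A11, a urate transporter, had log2 changes of 1.51 in the N211del line and 3.05 in the INTS8 line, and its difference was lost without dTAG13 replicate 2 of the INTS8 line or when either N211del DMSO library was left out. That of MASP2 had an adjusted p of 0.0466 and was lost under many alternatives. The same direction held for SMAD6 (−0.90), NDRG1 (−0.88), ATF3 (−0.87), NR4A2 (−0.86), CHAC1 (−0.78), DDIT4 (−0.77), JUN (−0.56) and EGLN3 (−0.49). The difference of SMAD6 was lost without dTAG13 replicate 2 of the INTS8 line. That of JUN was lost without the same library or without dTAG13 replicate 2 or DMSO replicate 1 of the N211del line, and that of EGLN3 without DMSO replicate 1 of the N211del line or DMSO replicate 2 of the INTS8 line.

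Against the INTS11 line, the response was higher in the N211del line for DISP3 by 2.74, for KHDRBS3 by 2.60, for RGS2 by 2.56, for MEX3B by 2.52 and for SEMA3G by 2.46. It was lower for RFESD (−1.95), SULT1C3 (−1.91), TMEM17 (−1.76), LYRM9 (−1.67) and HOXB2 (−1.67). TMEM17, a protein of the ciliary transition zone, had log2 changes of −0.42 in N211del cells and 1.34 in INTS11-tagged cells, and LYRM9 had −0.49 and 1.18. None of these 10 differences lost its call under the alternatives run.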

How the results depend on the processing

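Centring each library on its median moved the balance of calls in every comparison: 1771 higher and 2316 lower genes for dTAG13 against DMSO in the N211del line with a median of −0.049, 287 and 469 for the difference to the INTS8 line, 992 and 1237 for that to the INTS11 line, and 2148 and 2436 in batch 2. Correcting each library for gene length, which also takes out its overall offset as centring does, gave 1688 higher and 2544 lower genes. The median was then −0.074. Averaging agreeing pairs gave 263 lower genes, 72 called for the difference to the INTS8 line (26 higher, 46 lower) and 1336 for that to the INTS11 line (1155 higher, 181 lower). Voom on the whole numbers called 1367 genes for the difference to the INTS8 line, 1173 higher, and a fit of that contrast's libraries alone called 213 lower; the cause was not tested. Leaving out 1 library gave 181 to 2522 called genes for the difference to the INTS8 line (110 to 2372 higher, 70 to 150 lower). It gave 2930 to 4071 for dTAG13 against DMSO (2465 to 3745 higher, 326 to 663 lower, median 0.14 to 0.29), 2422 to 4014 for the difference to the INTS11 line and 3755 to 4032 in batch 2. PPP2CB turned to −0.062 by centring and −0.046 by length correction, and CLK1 to −0.0044 and −0.018. In batch 2 centring turned CLK1 to −0.092, PPP2CB to −0.17 and DNAJA1 to −0.0041, and leaving out 1 library put PPP2CB between −0.0081 and 0.066. Over the named genes and alternatives, 1357 values of dTAG13 against DMSO kept their direction and call, 37 lost the call and 4 turned; for the difference to the INTS8 line 384 kept it and 24 lost it, and for that to the INTS11 line all 170 kept it.

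Same-numbered libraries did not deviate together (correlations −0.105 to 0.082 in batch 1 and −0.079 to 0.042 in batch 2), so the numbers were not taken to pair them. With a replicate block 3596 genes were called for dTAG13 against DMSO, 718 and 3113 for the differences to the INTS8 and INTS11 lines, and 4352 in batch 2. With 2 libraries per group the median SE was 0.09 in batch 1, which limits the calling of small changes, and genes below about 1 unit per kb rest on few units.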

Other observations

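A further 173 genes were listed for the N211del line but not in all batch 1 files, so they stand outside the comparisons above. In a fit of the 4 N211del libraries 159 of them passed the filter, with 107 higher and 7 lower and a median log2 change of 0.91, where 43.3% of the 6733 genes of that fit were higher and 5.55% lower. Such genes need be high in 1 group only to be listed, so these counts describe the list and are no support for a direction. The genes named here were chosen after their values were seen. RASD1, a Ras-related GTPase induced by glucocorticoids, had 50.1 and 48.0 units per kb in dTAG13 libraries, against 2.55 and 1.53 in DMSO libraries. MAFA, a transcription factor of insulin-producing cells, had 5.99 and 5.99 against 0.375 and 0.375, and the scavenging chemokine receptor ACKR3 had 1.84 and 1.04 against 0.160 and 0.160. EGR2, an immediate early factor related to EGR1, had 2.75 and 3.21 against 0.918 and 0.689. In each of the 4 genes both dTAG13 libraries lay above both DMSO libraries.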
